A study of Homo sapiens with 3 samples.

Results

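The genes described here are 9 genes of MHC class I antigen presentation, taken by symbol from a list of class I heavy chains, light chain, transporter, loading and trimming factors and their regulator, out of 62754 genes in each deposited table. They were read in 3 libraries of polyadenylated RNA from wild-type pNPCs (primitive neural progenitor cells), which represent an early neural stage that still renews itself and which had been made from the established human embryonic stem cell line H1. Per the labels, all 3 libraries (replicates 1 to 3) came from the same culture conditions, a Neurobasal and DMEM/F12 medium with N2, B27 lacking retinoic acid, FGF2 (20 ng/ml), the GSK3 inhibitor CHIR99021 (3 µM), human LIF (10 ng/ml), the TGF-beta receptor inhibitor SB431542 (2 µM) and the ROCK inhibitor Y-27632 (10 µM). There is 1 group, without a treated, differentiated or interferon-exposed arm, all cells come from 1 parental line, and the series belongs to work on chimeric brains. Separate cultures are not mentioned for the replicates in the labels, so the spread given here may be technical.

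MHC class I molecules display peptides from inside the cell to CD8+ T cells and are read by receptors of natural killer (NK) cells. A polymorphic heavy chain pairs with beta-2-microglobulin in the endoplasmic reticulum, receives a peptide that the TAP transporter has brought in from the cytosol, and travels to the surface once the peptide is bound. Transcription of these genes is raised by interferons and by the coactivator NLRC5, and neural cells at rest are known for low class I levels, which is of interest for cells that are grafted into a host.

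The upstream sequence of 4 members is shown because 2 heavy chain genes, their light chain and the transporter gene TAP1 stood at very different levels in these libraries. Sequences are the 250 bases before the RefSeq gene start on GRCh38.p14, 5′ to 3′ on the gene's strand. Capitals mark matches, on either strand, to the motif letters GAAANNGAAA (core of the interferon-stimulated response element), GGGANTNCC (an NF-kappaB type site), GATTGG (the Y box, bound by NF-Y) or TTCNNNGAA (the GAS element).
HLA-B, chr6:31357180-31357429, minus strand: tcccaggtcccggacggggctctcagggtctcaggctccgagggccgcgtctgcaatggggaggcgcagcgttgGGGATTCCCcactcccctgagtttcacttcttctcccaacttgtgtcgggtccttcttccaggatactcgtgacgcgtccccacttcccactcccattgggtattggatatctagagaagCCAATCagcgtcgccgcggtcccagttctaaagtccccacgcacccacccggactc
HLA-C, chr6:31272093-31272342, minus strand: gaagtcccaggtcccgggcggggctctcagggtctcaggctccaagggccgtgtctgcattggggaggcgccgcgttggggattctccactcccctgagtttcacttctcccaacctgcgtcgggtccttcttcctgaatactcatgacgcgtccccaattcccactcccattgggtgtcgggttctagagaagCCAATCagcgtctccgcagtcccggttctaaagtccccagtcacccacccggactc
B2M, chr15:44711267-44711516, plus strand: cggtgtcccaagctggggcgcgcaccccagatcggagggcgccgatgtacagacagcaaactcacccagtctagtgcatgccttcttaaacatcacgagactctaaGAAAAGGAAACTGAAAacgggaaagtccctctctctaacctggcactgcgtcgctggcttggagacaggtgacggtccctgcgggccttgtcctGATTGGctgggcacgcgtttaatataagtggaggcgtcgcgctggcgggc
TAP1, chr6:32853705-32853954, minus strand: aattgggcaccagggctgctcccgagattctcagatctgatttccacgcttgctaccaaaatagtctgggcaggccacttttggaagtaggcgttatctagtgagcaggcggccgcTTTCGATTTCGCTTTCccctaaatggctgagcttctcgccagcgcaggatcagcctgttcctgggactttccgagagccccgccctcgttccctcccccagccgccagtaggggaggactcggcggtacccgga

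The HLA-B and HLA-C stretches matched at 226 of 254 aligned columns (89.0%), and both held the Y box letters at positions -56 to -51 from the gene start. The NF-kappaB letters were matched at -176 to -168 in HLA-B. B2M held 2 overlapping matches to the response element core, at -144 to -135 and -138 to -129, and the Y box letters at -50 to -45. TAP1 held 2 overlapping matches to that core, at -134 to -125 and -128 to -119. In the RefSeq promoter windows, which run from 250 bases before to 50 bases after the start and were matched for 7 of the 9 members (not HLA-E and NLRC5), the response element core was found in 5 members (B2M, TAP1, TAP2, TAPBP and ERAP1). The NF-kappaB letters were found in 2 (HLA-B and TAPBP), the Y box letters in 3 (HLA-B, HLA-C and B2M) and the GAS letters in 1, in a second window of TAP1. Over all 35116 windows, 3.57% held the response element core, 4.35% the NF-kappaB letters, 15.1% the Y box letters and 7.66% the GAS letters. A match describes letters and shows no binding, and an absent match says only that these letters are not in the window.

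Of the 9 members, 7 were detected, meaning that each of the 3 libraries gave them a TPM of at least 1. TPM (transcript abundance) corrects a level for transcript length and sequencing depth. Over all protein-coding genes 62.2% were detected, and over all genes 23.0%. The 2 members below that level were TAP1, a subunit of the peptide transporter, and NLRC5, the class I coactivator, and both passed a minimum of 0.5 TPM. The median member stood at 3.88 ± 0.13 log2(TPM + 1) (mean ± SD, n = 3), against 2.86 ± 0.18 for protein-coding genes. Means of the members ran from 0.62 TPM for NLRC5 to 305 TPM for B2M.

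**Figure D1:**
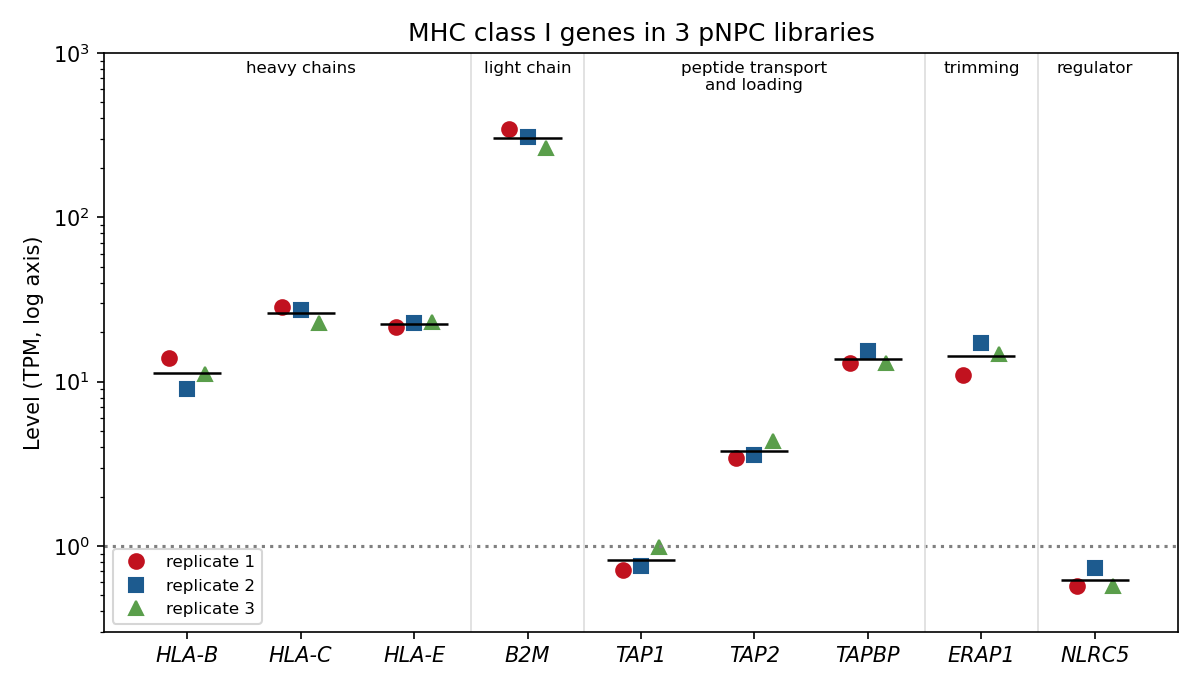
Level of each class I gene in TPM (log axis) by gene role, with 1 point per library and a bar at the mean of the 3 libraries. The dotted line is the detection level of 1 TPM. B2M lay between 264 and 342 TPM, the heavy chains between 9.01 and 28.4 TPM, and all points of TAP1 and NLRC5 lay under the line.

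The heavy chains form the peptide groove. HLA-C (ENSG00000204525.18, chromosome 6, 31268749 to 31272092, minus strand), a classical heavy chain and a main ligand of inhibitory killer cell receptors, stood at 28.4, 27.3 and 22.6 TPM in replicates 1, 2 and 3, from 940, 884 and 572 expected counts (RSEM's estimated reads). HLA-E (ENSG00000204592.9, chromosome 6, 30489509 to 30494194, plus strand), a non-classical heavy chain that presents leader peptides of other class I chains to the NK receptor CD94/NKG2A, stood at 21.4, 22.7 and 23.0 TPM from 1196, 1257 and 1010 counts. HLA-B (ENSG00000234745.14, chromosome 6, 31353875 to 31357179, minus strand), a classical heavy chain, stood at 13.9, 9.01 and 11.2 TPM from 482, 315 and 294 counts. HLA-B was the lowest of these 3 in every library, and its values did not overlap with those of the other 2. HLA-C and HLA-E overlapped, with HLA-C above HLA-E in replicates 1 and 2 and below it in replicate 3.

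On the log2(TPM + 1) scale HLA-C exceeded HLA-B by 1.15 ± 0.31 and HLA-E exceeded HLA-B by 0.94 ± 0.33 (mean ± SD, n = 3), in 3 of 3 libraries. HLA-C stood at 2.04, 3.03 and 2.03 times HLA-B in replicates 1, 2 and 3. HLA-E was the steadiest member, with a coefficient of variation of 3.68% over the libraries, against 21.6% for HLA-B. In CPM (counts scaled to library size, with no length scaling) HLA-E lay above HLA-C, at 33.6 ± 0.89 against 23.1 ± 4.03 CPM, so the order of these 2 depends on length scaling, and HLA-E minus HLA-B was 1.60 log2(CPM + 1) units. Heavy chain genes are highly polymorphic, and reads of the line's own alleles were counted against reference transcripts, an effect on these levels that was not tested. In the reference, 0 of 1825 distinct stretches of 75 bases in HLA-B coding transcripts, 29 of 1687 in HLA-C (1.72%) and 51 of 2527 in HLA-E (2.02%) occurred in a transcript of another gene. The counts of HLA-E were whole numbers in 3 of 3 libraries and those of HLA-B and HLA-C in 1 of 3, so RSEM divided some reads of the last 2. In GENCODE release 29 the HLA-B gene model overlaps HLA-C by 2640 bases on the same strand. The 75-base stretches were taken from protein-coding transcripts of that release, which need not be the annotation used for counting. Both HLA-B and HLA-C had whole counts in replicate 2, the library with the ratio of 3.03. How far the ratio of HLA-C to HLA-B depends on the division of reads was not tested.

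B2M (ENSG00000166710.23, chromosome 15, 44711517 to 44718145, plus strand) encodes beta-2-microglobulin, the light chain shared by all class I molecules and several class I-like proteins. It stood at 342, 310 and 264 TPM in replicates 1, 2 and 3, from 6360, 5542 and 3623 expected counts, all whole numbers. These values put B2M at percentiles 98.2, 97.9 and 97.6 of protein-coding genes, the highest member in each library. Replicate 1 was the highest and replicate 3 the lowest.

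B2M exceeded the summed TPM of HLA-B, HLA-C and HLA-E 5.38-, 5.25- and 4.65-fold in replicates 1, 2 and 3. The difference was 2.33 ± 0.11 log2(TPM + 1) units, and 1.12 log2(CPM + 1) units without length scaling. The sum covers these 3 heavy chain genes and is not a sum over all heavy chains.

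Peptide transport stood far lower. TAP1 (ENSG00000168394.13, chromosome 6, 32845209 to 32853704, minus strand) and TAP2 encode the paired subunits of the transporter that carries peptides into the endoplasmic reticulum. TAP1 stood at 0.71, 0.76 and 0.98 TPM in replicates 1, 2 and 3, from 38.5, 40.9 and 37.0 expected counts, with Poisson 95% intervals of 27.7 to 53.3, 29.4 to 55.6 and 26.1 to 51.0 counts that cover counting error only. TAP2 (ENSG00000204267.19, chromosome 6, 32821831 to 32838739, minus strand) stood at 3.42, 3.60 and 4.36 TPM from 343, 400 and 329 counts. The values of the 2 genes did not overlap, and TAP2 was the higher in every library. In GENCODE release 29, PSMB9 and the noncoding PSMB8-AS1 lie on the opposite strand over 8770 and 1287 bases of TAP1. PSMB9 took 0, 3 and 0 counts and PSMB8-AS1 3.46, 7.14 and 1 in replicates 1, 2 and 3. The counts of TAP1 were whole numbers in 1 of 3 libraries, so RSEM divided some of its reads.

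TAP1 minus TAP2 came to -1.40 ± 0.03 log2(TPM + 1) units, the smallest SD of the 10 differences computed, and TAP2 stood at 4.67 ± 0.19 times TAP1 in TPM. The scale understates differences of low genes, and the value was -2.09 with a pseudocount of 0.1 and -2.42 log2(CPM + 1) units without length scaling. A second gene model on the same strand (ENSG00000250264.1) covers 16948 bases of TAP2 and took 62.9, 85.1 and 78.8 counts, and 32.3% of 75-base stretches of TAP2 coding transcripts also occur in another gene's transcripts. The split of reads makes the TAP2 level uncertain.

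TAPBP (ENSG00000231925.14, chromosome 6, 33299694 to 33314078, minus strand) encodes tapasin, which bridges the transporter and the empty heavy chain. It stood at 12.9, 15.3 and 13.0 TPM from 1036, 1127 and 770 counts, above TAP1 by 3.02 ± 0.20 log2(TPM + 1) units. The pseudocount lowers that difference, which was 3.92 ± 0.29 with a pseudocount of 0.1. In TPM, TAPBP stood at 17.2 ± 3.55 times TAP1 and at 3.67 ± 0.64 times TAP2. ERAP1 (ENSG00000164307.13, chromosome 5, 96760813 to 96935854, minus strand), the aminopeptidase that trims peptides in the endoplasmic reticulum, stood at 11.04, 17.2 and 14.7 TPM from 1230, 1831 and 1229 counts. ERAP1, TAPBP and HLA-B were neighbours in the order of means and overlapped, ERAP1 being lowest in replicate 1 and HLA-B highest there. CAST lies on the opposite strand over 18786 bases of ERAP1, at 31.9, 35.5 and 33.8 TPM. The counts of ERAP1 and of CAST were fractional in every library. RSEM therefore divided some reads of each, and how far the ERAP1 level depends on that split was not tested. No source used here states whether the counting was stranded.

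NLRC5 (ENSG00000140853.17, chromosome 16, 56989557 to 57083520, plus strand), which is recruited to class I promoters by factors bound at their SXY module, stood at 0.57, 0.73 and 0.57 TPM. Its expected counts were 21, 33 and 39 in replicates 1, 2 and 3, with Poisson 95% intervals of 13.0 to 32.1, 22.7 to 46.3 and 27.7 to 53.3 counts. TPM and counts do not order the libraries alike, because the effective length RSEM used for the gene was 1439, 1729 and 3382 bases. In CPM NLRC5 stood at 0.61, 0.86 and 1.3, a 2.14-fold range. Its level is therefore low on both scales, while its order among the libraries rests on how reads were assigned to transcripts.

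In the order of mean TPM, B2M stood first, followed by HLA-C, HLA-E, ERAP1, TAPBP, HLA-B, TAP2, TAP1 and NLRC5. The ranges did not overlap between B2M and HLA-C, between HLA-E and ERAP1, between HLA-B and TAP2 or between TAP2 and TAP1. They overlapped for HLA-C with HLA-E, ERAP1 with TAPBP, TAPBP with HLA-B and TAP1 with NLRC5, although TAP1 was above NLRC5 in 3 of 3 libraries. This order holds on the TPM scale, and several neighbours changed places in CPM. ERAP1 was above HLA-E in 3 of 3 libraries, at 35.5, 47.7 and 40.9 against 34.5, 32.7 and 33.6 CPM. TAPBP was above HLA-C in 3 of 3 libraries, at 29.9, 29.3 and 25.6 against 27.1, 23.0 and 19.04 CPM. TAP2 was above HLA-B in replicates 2 and 3, at 10.4 and 10.96 against 8.20 and 9.79 CPM. TAP1 was below NLRC5 in replicate 3, at 1.23 against 1.3 CPM.

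**Figure D2:**
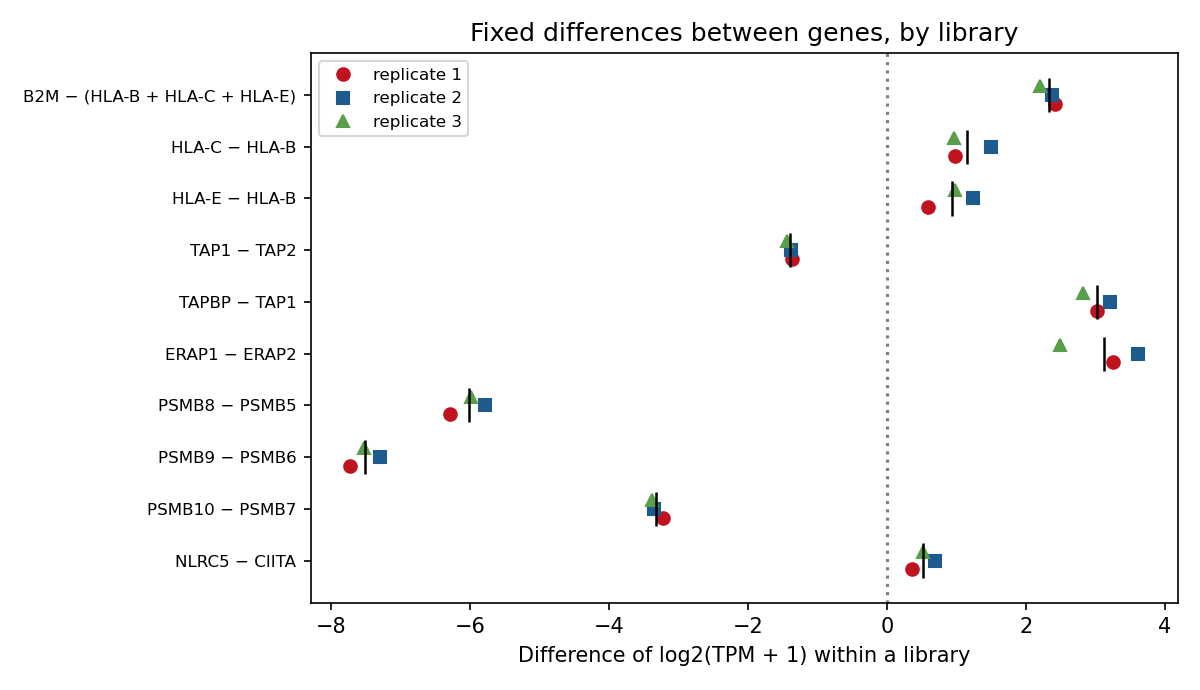
Differences of log2(TPM + 1) within a library for 10 fixed pairs, with 1 point per library and a bar at the mean. On this scale every pair kept its sign in 3 of 3 libraries. The size of the PSMB9 minus PSMB6 points is set by the pseudocount, and the other means run from -6.02 for PSMB8 minus PSMB5 to 3.12 for ERAP1 minus ERAP2.

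On the log2(TPM + 1) scale each of the 10 differences kept its sign in 3 of 3 libraries and had p = 0.25 in an exact permutation test that flips signs (two-sided, Benjamini-Hochberg adjusted 0.25). This is the lowest value possible with n = 3. None could therefore reach a threshold of 0.05, and they are given by size and SD.

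The proteasome cuts the peptides that class I presents, and cells exposed to interferon-gamma replace its catalytic subunits by immunoproteasome subunits. The 3 constitutive subunits were all detected, with PSMB5 at 233 ± 26.0, PSMB6 at 198 ± 13.3 and PSMB7 at 274 ± 12.2 TPM (mean ± SD, n = 3). PSMB9, the counterpart of PSMB6, had 0, 3 and 0 counts in replicates 1, 2 and 3, and 3 counts would have been 0.13, 0.27 and 0.17 TPM. PSMB8, the counterpart of PSMB5, stood at 2.34, 3.24 and 2.29 TPM from 59, 75 and 43 counts. PSMB10, the counterpart of PSMB7, stood at 28.99, 26.7 and 24.1 TPM. The differences were -6.02 ± 0.25 log2(TPM + 1) units for PSMB8 minus PSMB5 and -3.32 ± 0.08 for PSMB10 minus PSMB7. For PSMB9 minus PSMB6 no size is given, because 0 counts in replicates 1 and 3 leave it to the pseudocount. In RefSeq, PSMB9 and TAP1 lie head to head, with 488 bases between their starts, so the promoter sequence shown for TAP1 also lies upstream of PSMB9. In GENCODE release 29, by contrast, the PSMB9 gene model covers 8770 bases of TAP1. The pair includes the lowest proteasome gene and the lower TAP gene, and whether the shared sequence bears on either level was not tested. PSME1 and PSME2, which encode the proteasome activator PA28, were detected at 92.3 ± 2.96 and 153 ± 24.0 TPM, so 4 of 5 immunoproteasome list genes were detected.

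Of 6 further loading and trimming genes 4 were detected, a share of 66.7% against 62.2% of protein-coding genes. The general chaperones of the endoplasmic reticulum were abundant, with calreticulin (CALR) at 689 ± 118, the disulfide isomerase gene PDIA3 at 480 ± 60.9 and calnexin (CANX) at 232 ± 25.9 TPM. UGGT1, a glycoprotein folding sensor, followed at 21.6 ± 5.83 TPM. The members of this list that serve class I in particular were below detection. TAPBPL, a tapasin-related peptide editor, had 0.56, 0.76 and 0.84 TPM in replicates 1, 2 and 3. ERAP2, a partner of ERAP1, had 0.26, 0.49 and 1.79 TPM from 29, 53 and 38 counts, its effective length falling from 4369 and 4123 bases to 1048 bases in replicate 3. ERAP1 minus ERAP2 was 3.12 ± 0.57 log2(TPM + 1) units, and 4.29 ± 0.07 log2(CPM + 1) units without length scaling. With a pseudocount of 0.1 in TPM it was 4.26 ± 1.12. CALR stood at 50.0 ± 3.49 times TAPBP in TPM.

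**Figure D3:**
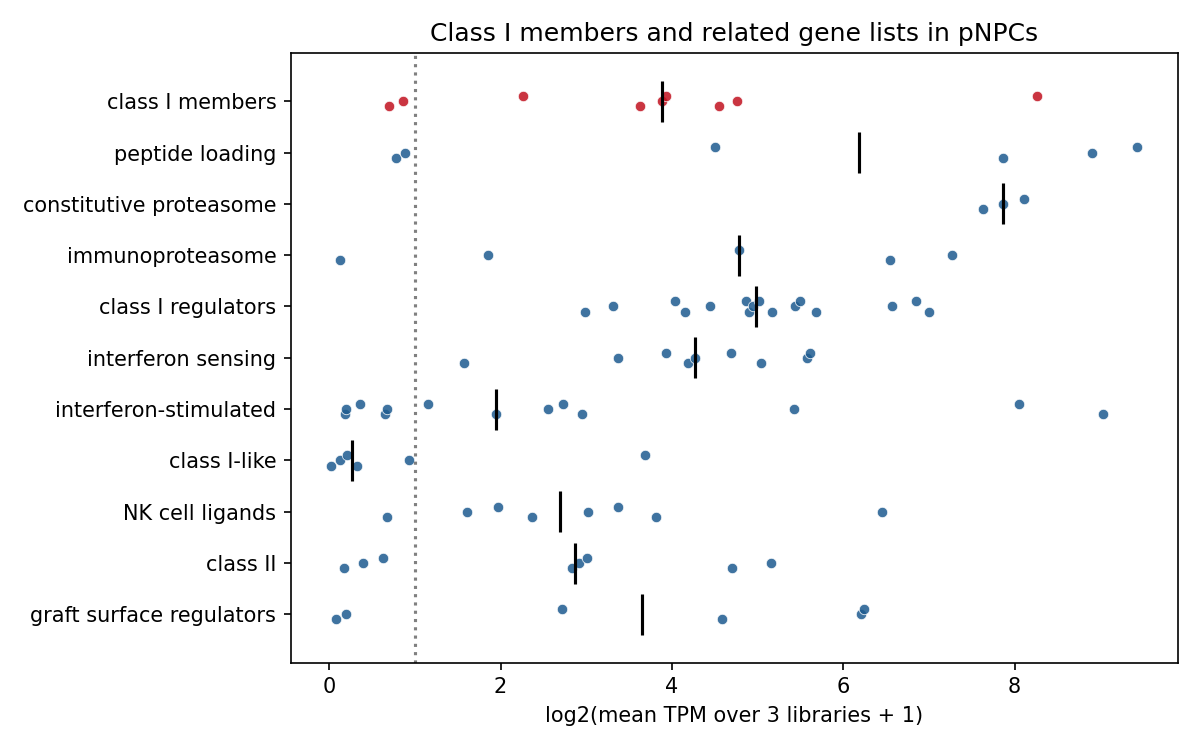
Mean level of each gene over 3 libraries as log2(TPM + 1), in the 9 class I members (red) and 10 related lists (blue), with a bar at the median of the points. The dotted line is 1 TPM, a level that 62.2% of protein-coding genes reached in all 3 libraries. Constitutive proteasome genes and class I regulators lie to the right of the line in all cases, and 5 of 6 class I-like genes lie to the left.

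All 16 genes of the class I regulator list were detected, although NLRC5 itself was not. The RFX complex, which binds the X box of class I and class II promoters, stood at 42.3 ± 4.57 TPM for RFX5, 15.4 ± 1.34 for RFXAP and 127 ± 14.3 for RFXANK, and RFX5 stood at 68.4 ± 8.52 times NLRC5 in TPM. The Y box factor subunits NFYA, NFYB and NFYC stood at 28.8 ± 3.76, 50.5 ± 1.93 and 93.9 ± 1.63 TPM. IRF1, the interferon-induced activator of class I and TAP1, stood at 8.11, 11.2 and 7.37 TPM, and the NF-kappaB subunit RELA at 43.9 ± 0.44 TPM. The Polycomb methyltransferase EZH2, a known repressor of class I pathway genes in several tumours, stood at 114 ± 10.9 TPM, with SUZ12 at 28.2 ± 6.71 and EED at 35.0 ± 2.35 TPM.

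The receptors and signal carriers for interferon were detected in 9 of 9 cases. IFNGR1 and IFNGR2, the interferon-gamma receptor chains, stood at 24.8 ± 1.35 and 46.6 ± 5.28 TPM, and JAK2, the kinase bound to IFNGR2, was the lowest of the list at 1.99 ± 0.50 TPM. Of 13 interferon-stimulated genes 7 were detected, a share of 53.8% against 62.2% of protein-coding genes. The membrane proteins IFITM3 and IFITM1 led at 522 ± 67.0 and 263 ± 29.2 TPM. The GTPase genes GBP1 and GBP2, induced by interferon-gamma, stood at 0.15 ± 0.02 and 0.14 ± 0.05 TPM, and the chemokine gene CXCL10 at 0.60 ± 0.16 TPM.

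Class I-like genes were mostly below detection, with 1 of 6 detected, FCGRT, the neonatal Fc receptor chain that pairs with B2M, at 11.9 ± 0.66 TPM. The non-classical heavy chain HLA-G, known from trophoblast, had 1, 0 and 0 counts, and HLA-F had 1, 0 and 3 counts in replicates 1, 2 and 3. HFE, an iron regulator, stood at 0.84, 1.04 and 0.85 TPM, MR1, which presents vitamin B metabolites, at 0.25 ± 0.09 TPM and the lipid-presenting CD1D at 0.16 ± 0.07 TPM.

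Ligands of NK cell receptors were detected in 7 of 8 cases. NECTIN2 and PVR, ligands of the activating receptor DNAM-1, stood at 86.4 ± 10.3 and 9.37 ± 0.61 TPM. Among ligands of the activating receptor NKG2D, MICA stood at 13.1 ± 0.89, ULBP3 at 7.10 ± 1.29, MICB at 2.93 ± 0.34 and ULBP1 at 2.06 ± 0.56 TPM, and ULBP2 was not detected at 0.60 ± 0.18 TPM. NCR3LG1, the ligand of NKp30, had 1.71, 4.97 and 5.75 TPM, lowest in replicate 1. Of 6 surface genes that restrain immune attack 4 were detected, a share of 66.7% against 62.2% of protein-coding genes. Among them were CD47, a signal that inhibits phagocytosis, at 23.1 ± 3.01 TPM, and 3 complement regulators. These were CD46 at 72.9 ± 18.2, CD59 at 74.7 ± 14.5 and CD55 at 5.60 ± 0.24 TPM. The checkpoint ligand genes CD274 and PDCD1LG2 stood at 0.15 ± 0.13 and 0.05 ± 0.02 TPM.

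Class II molecules present peptides to CD4+ T cells, and 5 of 8 genes of that list were detected. This share of 62.5% is near the 62.2% of protein-coding genes. CIITA, the class II coactivator and a relative of NLRC5, stood at 0.22, 0.07 and 0.10 TPM, and NLRC5 exceeded it by 0.52 ± 0.16 log2(TPM + 1) units. That difference was 1.70 with a pseudocount of 0.1 and 0.01 ± 0.27 log2(CPM + 1) units without length scaling, where NLRC5 was below CIITA in replicate 1, at 0.61 against 0.94 CPM. HLA-DRA, the alpha chain of HLA-DR, had 11, 4 and 7 counts (0.32 ± 0.13 TPM). The class II chaperone gene CD74 was detected at 34.5 ± 5.20 TPM. HLA-DPB1 stood at 21.3, 28.0 and 25.5 TPM from 266, 348 and 257 counts at effective lengths of 492, 479 and 499 bases, and HLA-DPA1 at 4.77, 6.70 and 6.92 TPM. The spans of these 2 genes overlap on opposite strands by 4850 bases, the counts of both were whole numbers in 3 of 3 libraries, and no source used here gives the strand setting of the counting. The peptide editors HLA-DMA and HLA-DMB stood at 7.04 ± 1.64 and 6.52 ± 1.62 TPM.

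Between replicates, 0 of the 9 members were called for more spread than genes of like abundance, against 1.59% of 17046 tested genes. The call was made in edgeR from the residual deviance of an intercept-only fit (Benjamini-Hochberg threshold 0.05). An unadjusted p below 0.05 was found for 0 members, against 7.35% of tested genes. With shares this small over all genes, these counts are not read as a trait of the members, and a gene not called is not shown to be steady. Each member had an adjusted p of 0.9999 in edgeR. The smallest unadjusted p values of that edgeR fit were 0.24 for B2M, 0.30 for HLA-B and 0.35 for NLRC5. In log2 CPM, B2M lay 0.49, HLA-B 0.65 and HLA-C 0.39 above the other libraries' mean in replicate 1, while NLRC5 lay at -0.73 and ERAP1 at -0.30. HLA-E lay at 0.07, TAP1 at -0.01 and TAP2 at -0.09. With the trend of each library on effective length removed, replicate 1 lay 0.03 above the others for B2M, 0.37 for HLA-B and 0.09 for HLA-C, and NLRC5 lay at -0.78. ERAP1 and TAP2 changed sign under that setting, to 0.19 and 0.34.

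**Figure D4:**
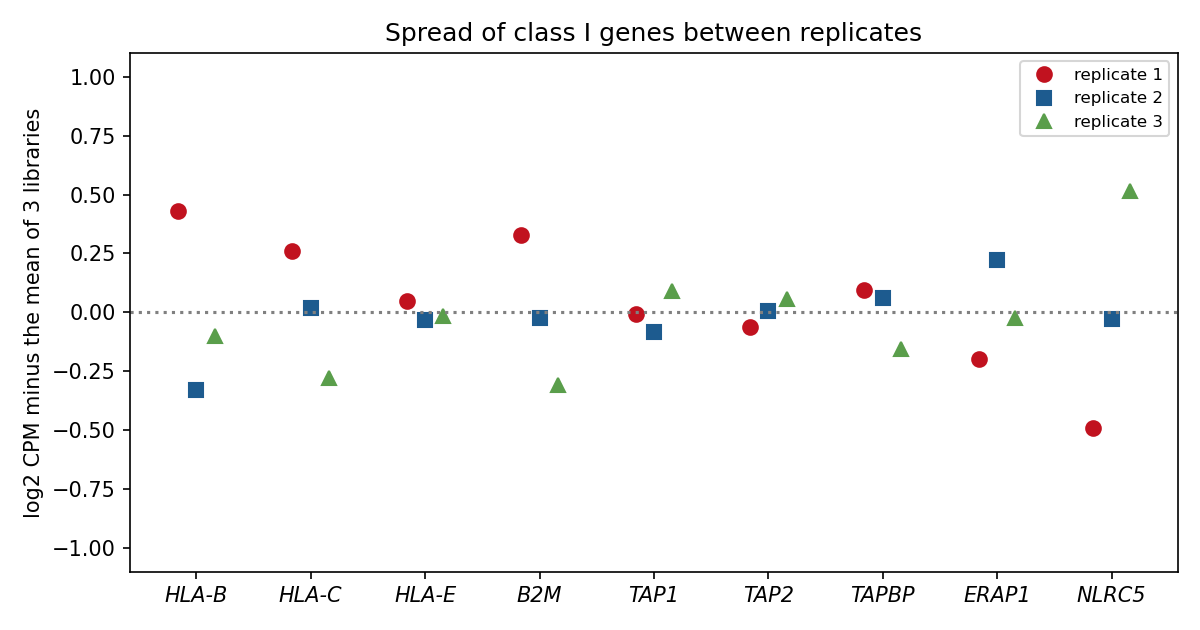
Deviation of each library from the mean of the 3 libraries in TMM-scaled log2 CPM, for the 9 members. Replicate 1 is highest for HLA-B, HLA-C, HLA-E, B2M and TAPBP and lowest for TAP2, ERAP1 and NLRC5, and no member passed the test for excess spread.

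The libraries held 34658454, 38400092 and 30038114 expected counts. Replicate 1 stood apart, with a chi-square per degree of freedom of 82.4 and 82.5 against the others, which differed from each other by 19.4. In TPM 6 of the 9 members were lowest in replicate 1 (NLRC5 tied with replicate 3) and 3 were highest there. The share of all genes lowest in replicate 1 was not counted. The median of protein-coding genes was also lowest there, at 2.66 against 2.93 and 2.99 log2(TPM + 1) in replicates 2 and 3. The count is therefore not read as a trait of the members. Of 9 neural progenitor markers 7 were detected, led by VIM, NES and FABP7, while PAX6 and HES5 were not. HES5 stood at 6.76, 0.72 and 5.66 TPM, below 1 TPM in replicate 2 only, and passed the test for excess spread (edgeR adjusted p = 0.0034), while PAX6 stayed between 0.13 and 0.81 TPM. All 5 mesenchyme markers were also detected, with a summed level of 406, 973 and 678 TPM in replicates 1, 2 and 3, and their part in the class I levels was not tested. Among them COL1A1, at 4.62, 18.3 and 12.9 TPM, also passed the test for excess spread (edgeR adjusted p = 0.0097). All 5 were lowest in replicate 1, where 4 of the 9 progenitor markers were highest and 2 lowest. Of immune cell markers, TYROBP, C1QA and CD2 had 0 counts in each library, and PTPRC, carried by all leukocytes, had 6 counts over the 3 libraries. Of 8 microglia and macrophage markers 1 (TMEM119) was detected, while AIF1 stood at 1.3, 1.73 and 0.56 TPM and CD68 at 0, 0.54 and 1.42 TPM in replicates 1, 2 and 3. In bulk RNA, a gene at a low level in all cells and a gene at a high level in few cells cannot be told apart.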

How the data were processed

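Per the submitters' processing notes, the GRCh38 build, RSEM 1.3.1, STAR 2.7.11a and Trim Galore 0.6.10 were used. No source used here states the annotation release, strand setting or read layout. The files are RSEM gene tables for single samples, per the file headers. The deposited expected counts are estimated reads per gene, not normalized, the TPM values were deposited already scaled for effective length and library size by the authors, and the deposited FPKM values were used only in an alternative. Lengths and effective lengths, per the file headers, are averages over transcripts.

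The members and lists were chosen with earlier results of these data known. The naming rule takes all 9 members, any gene of the 10 related lists, and the highest and lowest marker genes. Differences of log2(TPM + 1), a pseudocount of 1, were taken within libraries and tested by an exact permutation test that flips signs (two-sided). For excess spread, expected counts were rounded to whole numbers and fitted in edgeR 4.0.16 under R 4.3.3, after filterByExpr and TMM scaling, and the residual deviance at the trended dispersion was compared with a chi-square distribution (2 degrees of freedom). The test was tried on simulated data. Gene types, overlaps and transcript stretches came from GENCODE release 29 (58261 identifiers matched), coordinates and promoters from RefSeq GRCh38.p14. Protein sequences were not analysed here, and the level of 1 listed gene is not reported here. Python 3.11.15, numpy 2.4.6, pandas 2.3.3, scipy 1.17.1 and matplotlib 3.10.9 were used.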

Additional observations from a re-analysis of the deposited data

How the results depend on the processing

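No paired analysis was possible because there is 1 group, so the replicate numbers pair no samples across groups; the differences within a library are the only paired values. Among 173 recomputed values only those of the 10 differences were open to a change of sign, and 0 changed it. The others were counts, medians and levels, which were not judged by sign. The 10 differences were judged by the sign of their mean alone, and some changed in size: without length scaling, in log2(CPM + 1), NLRC5 minus CIITA was 0.01 against 0.52, B2M minus the heavy chain sum 1.12 against 2.33, TAP1 minus TAP2 -2.42 against -1.40 and HLA-E minus HLA-B 1.60 against 0.94. Also in log2(CPM + 1), ERAP1 minus ERAP2 was 4.29 against 3.12 and TAPBP minus TAP1 3.77 against 3.02. With a pseudocount of 0.1 NLRC5 minus CIITA was 1.70 and ERAP1 minus ERAP2 4.26. The count of detected class I members was 9 with the TPM minimum set to 0.5 and 6 with it set to 5, and leaving out each replicate in turn gave 7. The count of class I-like genes became 2 at a minimum of 0.5, and that of NK cell ligands 4 at a minimum of 5. The members' median became 3.39 in FPKM and 4.57 in CPM. Leaving out each replicate gave 95 to 117 genes with excess spread, against 271 with all 3 libraries and 1 degree of freedom more, and 0 members in each case. Means without each replicate ran from 287 to 326 TPM for B2M, 10.1 to 12.5 for HLA-B, 0.74 to 0.87 for TAP1 and 0.57 to 0.65 for NLRC5. The low counts of NLRC5 and TAP1 limit what their order can show.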
